A study of Mus musculus with 16 samples.

Results

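Genes for lysosomal hydrolases and lysosomal membrane proteins were followed in mouse livers in which ChREBPα, the longer protein made from Mlxipl, whose products switch on genes of sugar and fat metabolism when carbohydrate is plentiful, was to be deleted from hepatocytes or overexpressed. The set was a list of 30 gene symbols chosen by function. All 30 were found among the 17410 genes of the deposited tables, and all 30 were listed in each of the 16 libraries, as 13533 of the 17410 genes were. It held 9 peptidase genes (Ctsa, Ctsb, Ctsc, Ctsd, Ctsh, Ctsl, Ctss, Ctsz and Tpp1) and 5 glycosidase genes (Gla, Hexa, Gusb, Neu1 and Man2b1). A further 7 act on lipids (Lipa, Psap, Npc1, Npc2, Asah1, Smpd1 and Ppt1), and 7 encode proteins of the lysosomal membrane or its proton pump (Lamp1, Lamp2, Cd63, Scarb2, Mcoln1, Atp6v0d1 and Atp6v1h). The last 2 were Tfeb, a transcription factor gene, and Grn, the progranulin gene.

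RNA was sequenced from 4 livers in each of 4 groups. In the deletion experiment the LKO_NASH livers (21 to 24) came from Chrebpα-flox/flox mice given AAV-TBG-Cre, an adeno-associated virus whose TBG promoter drives Cre recombinase in hepatocytes, so that the other liver cells keep the gene. The WT_NASH livers (17 to 20) came from mice with the same floxed alleles given AAV-TBG-GFP. Both groups spent 12 weeks on a NASH diet, in which palm oil fat gave 40% of calories and fructose 20%, with cholesterol added at 2%. The labels give no age for these mice. In the overexpression experiment the Ad_Chrebpa_HFLMCD livers (13 to 16) came from wildtype mice, 2 months old at the start, given an adenovirus for Chrebpα, which the labels restrict to no cell type, and the Ad_GFP_HFLMCD livers (9 to 12) from wildtype mice given an adenovirus for GFP. Both of these groups ate the HFLMCD diet, with 45% of calories from fat, no choline and 0.1% methionine, for 3 weeks, and received the virus 1 week before dissection. The labels do not say outright that each numbered liver is a separate animal, so each p-value below stands against a spread between livers that may in part be technical.

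Lysosomes are acidic organelles that digest proteins, glycans and lipids delivered by endocytosis and autophagy. Most hydrolases reach them on mannose 6-phosphate receptors, a proton pump keeps the lumen acidic, and glycosylated membrane proteins line the membrane. TFEB and related factors raise the transcription of many of these genes through a CLEAR element, a palindromic E-box. In liver, hepatocytes use lysosomes for autophagy and for the release of cholesterol from lipoproteins, and macrophages hold large amounts of the same enzymes.

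RefSeq promoter windows (GRCm38.p6, 250 bases before to 50 after each start site) were available for 25 of the 30 genes, and Asah1, Atp6v1h, Ctsb, Ctsh and Npc1 had none. The core of the CLEAR element, TCACGTGA, was found in 5 of the 25 genes (20%), which were Atp6v0d1, Ctsa, Ctsd, Gla and Mcoln1. Both strands were searched, and the motif reads the same on each. It was found in 1.73% of 13796 genes of the deposited tables that had a window and in 11.6% of 86 other lysosomal genes. The shorter E-box CACGTG, which lies inside the longer motif, was found in 7 of the 25 genes (28%), with Ctsl and Lamp1 added. It was found in 10.4% of the 13796 genes and in 27.9% of the other lysosomal genes. The stretches that hold the 8-letter motif are shown with it in capitals, and that of Lamp1, which has 4 copies of CACGTG just before its start site, with those 6 letters in capitals. Each is written 5′ to 3′ on the strand of its gene.
Atp6v0d1 (chr8:105566050-105566079, minus strand): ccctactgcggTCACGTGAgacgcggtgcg
Ctsa (chr2:164833758-164833787, plus strand): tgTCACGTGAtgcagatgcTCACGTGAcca
Ctsd (chr7:142387908-142387937, minus strand): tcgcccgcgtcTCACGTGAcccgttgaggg
Gla, farther site (chrX:134601215-134601244, minus strand): taagcgattgaTCACGTGAgcatctacgtc
Gla, nearer site (chrX:134601182-134601211, minus strand): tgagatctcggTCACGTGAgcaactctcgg
Mcoln1 (chr8:3500462-3500491, plus strand): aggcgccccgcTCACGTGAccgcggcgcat
Lamp1 (chr8:13159091-13159160, plus strand): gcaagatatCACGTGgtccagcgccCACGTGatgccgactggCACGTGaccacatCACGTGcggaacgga

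Counted from the start site, the 8-letter motif began at base -99 in Ctsd, -46 in Mcoln1 and -4 in Atp6v0d1. Ctsa had it at -13 and at 5, and Gla at -228 and -195. The 4 copies of CACGTG in Lamp1 began at -61, -45, -28 and -15. A match is a description of the letters and not of a bound site. The 5 genes with the 8-letter motif had log2 fold changes of 0.02 to 0.39 in LKO_NASH and 0.02 to 0.13 in Ad_Chrebpa_HFLMCD, each against its controls, and none of these passed the test described next.

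The libraries held 21569511 to 32110154 expected counts in LKO_NASH, 21254937 to 40327264 in WT_NASH, 29640300 to 33996245 in Ad_Chrebpa_HFLMCD and 32131999 to 36163207 in Ad_GFP_HFLMCD. Expected counts are estimated reads per gene, and FPKM (fragments scaled to transcript length and library size, as the authors deposited it) is used here for levels. Log2 fold changes come from edgeR's quasi-likelihood test on counts, fitted to all genes, and a gene was called when its Benjamini-Hochberg adjusted p was below 0.05. Mlxipl had 47.5, 100.1, 85.1 and 72.9 FPKM in livers 21 to 24 (LKO_NASH), against 50.1, 77.5, 80.4 and 56.4 FPKM in livers 17 to 20 (WT_NASH), a log2 fold change of 0.05 (adjusted p = 0.916). It had 46.6, 45.2, 44.7 and 47.8 FPKM in livers 13 to 16 (Ad_Chrebpa_HFLMCD), against 48.5, 46.8, 38.95 and 40.7 FPKM in livers 9 to 12 (Ad_GFP_HFLMCD), a log2 fold change of 0.15 (adjusted p = 0.241). The groups overlapped in both experiments. These gene totals do not separate isoforms, and which exon was floxed is not stated in the labels, so the groups are called by their labels. The 9 hepatocyte markers summed to 51589 to 61976 FPKM per liver in LKO_NASH, 60794 to 70532 in WT_NASH, 50399 to 54724 in Ad_Chrebpa_HFLMCD and 48849 to 58442 in Ad_GFP_HFLMCD.

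Adenoviral Chrebpα went with higher levels of 3 of the 30 lysosomal genes and lower levels of none. The livers labelled Ad_Chrebpa_HFLMCD had more Scarb2, the receptor that carries β-glucocerebrosidase to lysosomes, by 0.56 on the log2 scale than Ad_GFP_HFLMCD. They had more Npc1, the membrane protein that exports cholesterol from lysosomes, by 0.36, and more Neu1, a sialidase, by 0.26. Over all 13658 genes tested, 4.95% were called higher and 3.18% lower. The median log2 fold change of the 30 genes was 0.04, against -0.01 over all genes tested. In FPKM, 3 of the 30 (Npc1, Lamp2 and Scarb2) lay above the control group without overlap, as 4.84% of all genes did, and none lay below, as 14.5% of all genes did. In the single fit of all 16 libraries, which pools the spread of both experiments, none of the 30 genes was called, against 1.71% of all genes higher and 0.723% lower (adjusted p = 0.0629 for Scarb2, 0.099 for Npc1 and 0.166 for Neu1).

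In the deletion experiment none of the 30 genes passed edgeR's test in the livers labelled LKO_NASH against WT_NASH, and none of the 12786 genes tested did (0% higher and 0% lower). Before adjustment, 9 of the 30 (30%) had a p under 0.05, and all 9 had higher levels in LKO_NASH. They were Ctsa, Ctsb, Ctsd, Ctss, Hexa, Lipa, Psap, Npc2 and Asah1, and 7.70% of all genes tested were higher at that p. The median log2 fold change of the 30 was 0.11, against 0.01 over all genes. DESeq2 called Asah1 alone (adjusted p = 0.0403), where it called 0.705% of all genes higher and 0.532% lower, and limma-voom and limma on log2(FPKM + 1) called none. In FPKM, 6 of the 30 (Ctsa, Ctsb, Ctsd, Hexa, Npc2 and Asah1) lay above WT_NASH without overlap, and none below. Of all genes, 6.93% lay above and 0.673% below, on a scale where the median of all genes was itself 0.10 higher in LKO_NASH on log2(FPKM + 1). Without liver 21 edgeR called Asah1 (0.41, adjusted p = 0.048), with 1.28% of all genes called higher and 1.96% lower. Livers 19 and 21, a pair that earlier results of these data had set apart, were the lowest LKO_NASH liver (21) and the highest WT_NASH liver (19) for Ctsd, Hexa, Npc2 and Ppt1. For Scarb2, liver 21 was the highest of LKO_NASH and liver 19 the lowest of WT_NASH, and for Asah1 liver 21 was the lowest of LKO_NASH. Leaving them out therefore widens the difference of each of these 6 genes by construction, and the calls made without them are no support for it. Without both, edgeR called Asah1, Ctsd, Hexa, Npc2 and Ppt1 higher and Scarb2 lower, with 4.84% of all genes called higher and 7.05% lower.

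**Figure D1:**
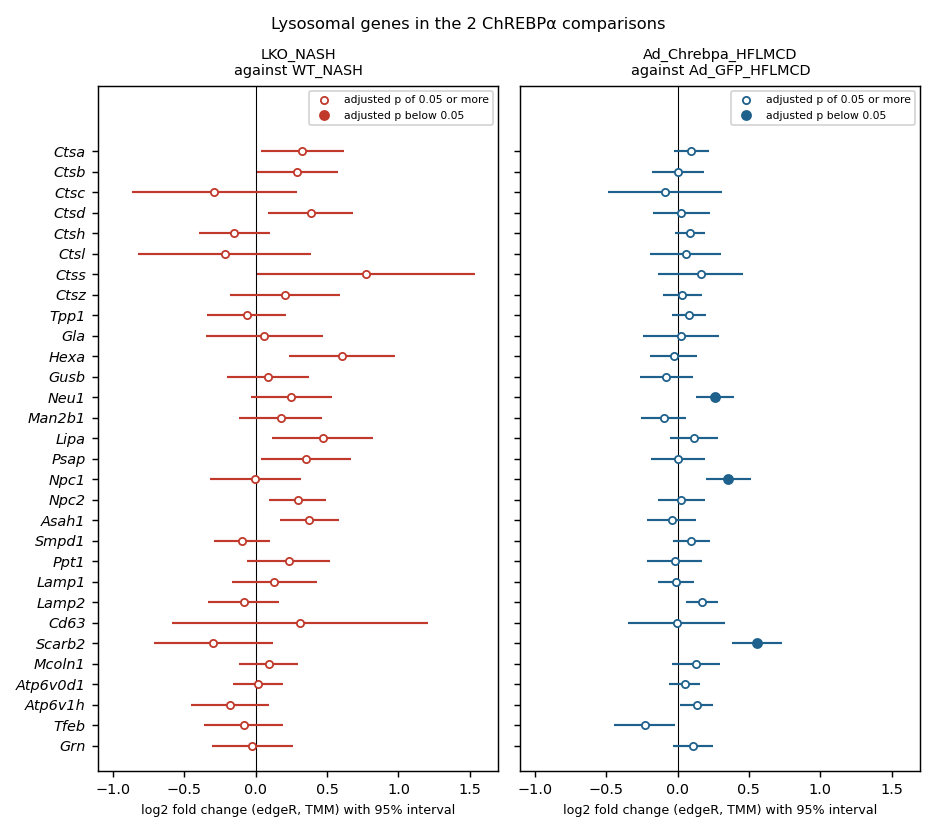
Log2 fold changes (edgeR, x axis) of the 30 lysosomal genes with 95% intervals, LKO_NASH against WT_NASH on the left and Ad_Chrebpa_HFLMCD against Ad_GFP_HFLMCD on the right. Filled points, which passed an adjusted p of 0.05, are found for Neu1, Npc1 and Scarb2 on the right, and the intervals on the left are wider.

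In FPKM, 26 of the 30 genes were lower in every WT_NASH liver than in every Ad_GFP_HFLMCD liver, as 68.9% of all genes were. The groups overlapped for Lamp2, Smpd1, Npc1 and Scarb2. Per length, the highest mean levels in LKO_NASH were those of Lamp1 (345.6 ± 47.4 FPKM) and Psap (273 ± 45.3), and in WT_NASH those of Lamp1 (283 ± 34.5) and Ctsl (244 ± 57.2; all SD, n = 4). In Ad_Chrebpa_HFLMCD they were Psap (722 ± 70.1) and Ctsd (651 ± 74.9), and in Ad_GFP_HFLMCD likewise Psap (758 ± 87.4) and Ctsd (672 ± 74.5). Gla was the lowest of the 30 in each group, with means of 1.78, 1.53, 5.63 and 5.81 FPKM in LKO_NASH, WT_NASH, Ad_Chrebpa_HFLMCD and Ad_GFP_HFLMCD. Within groups, liver 10 had the highest value of its group for 21 of the 30 genes, liver 13 the lowest of its group for 22, and liver 24 the highest of its group for 15.

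**Figure D2:**
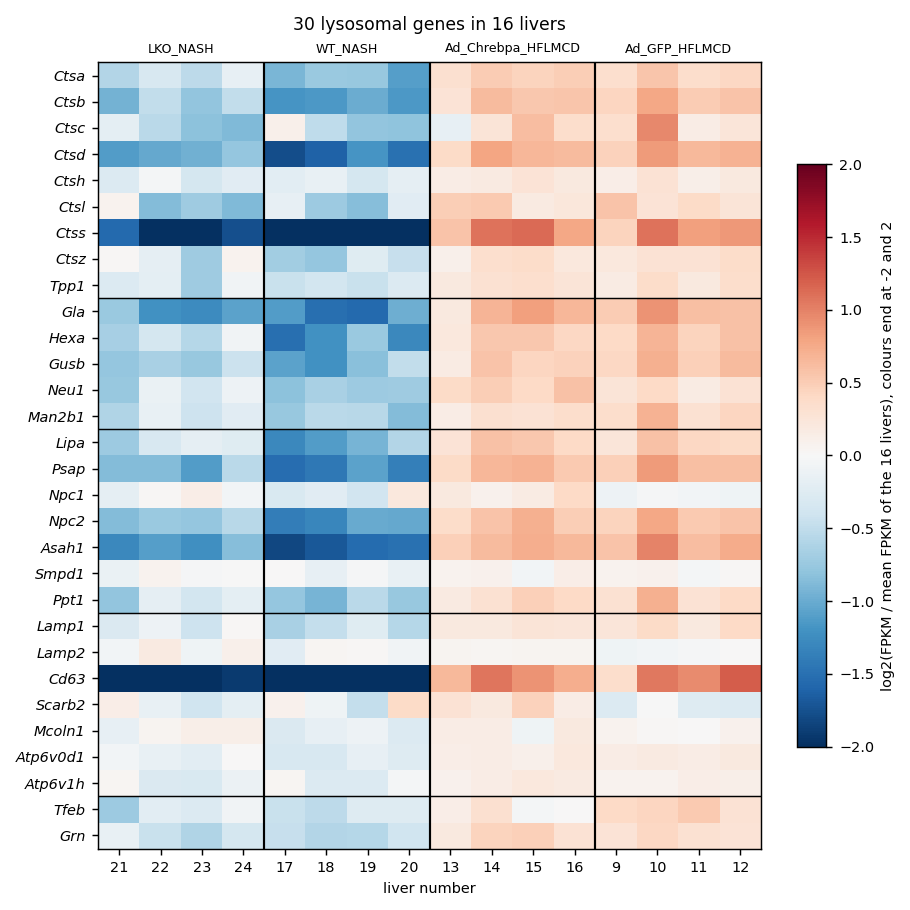
FPKM of the 30 lysosomal genes (rows, in their 5 classes) in 16 livers (columns), as log2 of the ratio to the gene's mean over all livers, with the colours ending at -2 and 2. Most rows are blue in the 8 NASH livers and red in the 8 HFLMCD livers, most deeply Ctss and Cd63, and rows such as Lamp2, Smpd1 and Scarb2 are pale throughout.

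Cathepsins are the main lysosomal proteases, most of them cysteine enzymes and Ctsd an aspartic one. No peptidase gene was called in either ChREBPα comparison, and the values of 4 of the 9 are given by liver. Ctsd (NCBI gene 13033, chromosome 7) had 194, 207, 218 and 248 FPKM in livers 21 to 24 (LKO_NASH), against 123, 138, 187 and 151 FPKM in livers 17 to 20 (WT_NASH). Each LKO_NASH liver lay above each WT_NASH liver, by a log2 fold change of 0.39 (95% interval 0.08 to 0.69, adjusted p = 0.343). Ctsd had 548, 727, 669 and 658 FPKM in livers 13 to 16 (Ad_Chrebpa_HFLMCD), against 581, 763, 662 and 682 FPKM in livers 9 to 12 (Ad_GFP_HFLMCD), and these groups overlapped (log2 fold change 0.03, adjusted p = 0.880).

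Ctsb (NCBI gene 13030, chromosome 14), the cysteine protease cathepsin B, had 121, 167, 135 and 166 FPKM in LKO_NASH, against 103, 106, 118 and 105 FPKM in WT_NASH. Here too the groups did not overlap, the smallest gap lying between liver 21 and liver 19 (log2 fold change 0.29, adjusted p = 0.363). Ctsb had 284, 362, 339 and 342 FPKM in Ad_Chrebpa_HFLMCD and 314, 398, 331 and 349 FPKM in Ad_GFP_HFLMCD, which overlapped (0.00, adjusted p = 0.981). Ctss, a cathepsin of antigen-presenting cells that cuts the invariant chain, had the largest log2 fold change of the 30 in LKO_NASH, 0.77 (adjusted p = 0.367). Its FPKM was 52.0, 27.8, 16.0 and 45.65 in LKO_NASH, against 15.8, 12.7, 25.0 and 21.2 in WT_NASH, and liver 23 fell within the WT_NASH range. In the overexpression experiment Ctss (NCBI gene 13040, chromosome 3) had 229, 326, 337 and 264 FPKM in Ad_Chrebpa_HFLMCD and 209.8, 325, 272 and 279.9 FPKM in Ad_GFP_HFLMCD (0.16, adjusted p = 0.479).

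Ctsh, an aminopeptidase among the cathepsins, had overlapping groups in both experiments. It had 127, 149, 120.25 and 131 FPKM in LKO_NASH, against 132, 138, 120.01 and 136 FPKM in WT_NASH, with a log2 fold change of -0.15 (adjusted p = 0.519) that was 0.00 on log2(FPKM + 1). It had 171, 175, 186 and 175 FPKM in Ad_Chrebpa_HFLMCD and 168, 188, 166.5 and 176 FPKM in Ad_GFP_HFLMCD (0.09, adjusted p = 0.271). Of the other peptidase genes, Ctsa, the protective protein of the sialidase complex, averaged 58.8 ± 8.05 FPKM in LKO_NASH and 41.9 ± 4.76 FPKM in WT_NASH without overlap (log2 fold change 0.33, adjusted p = 0.357). Ctsl, Ctsz, Ctsc and Tpp1, the tripeptidyl peptidase lost in a neuronal ceroid lipofuscinosis, had log2 fold changes of -0.22, 0.21, -0.29 and -0.06 in LKO_NASH (adjusted p = 0.555 to 0.803). These 5 genes lay between -0.09 and 0.10 in Ad_Chrebpa_HFLMCD. Summed over the 9 genes, the peptidase level was 1051 ± 107 FPKM in LKO_NASH and 888 ± 49.5 FPKM in WT_NASH, and 2311 ± 181 FPKM in Ad_Chrebpa_HFLMCD and 2343 ± 156 FPKM in Ad_GFP_HFLMCD (SD, n = 4 each).

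Glycosidases remove sugars from glycoproteins and glycolipids. Among the 5 genes Neu1 was called higher in Ad_Chrebpa_HFLMCD, and all 5 had positive log2 fold changes in LKO_NASH (0.06 to 0.61), none of them called. Neu1 (NCBI gene 18010, chromosome 17) had 17.05, 18.3, 17.3 and 19.55 FPKM in livers 13 to 16 (Ad_Chrebpa_HFLMCD), against 15.6, 17.1, 14.65 and 15.9 FPKM in livers 9 to 12 (Ad_GFP_HFLMCD). In FPKM the groups overlapped slightly, as liver 13 lay just under liver 10. The log2 fold change was 0.26 (95% interval 0.13 to 0.39, adjusted p = 0.0288). The call was lost without liver 9 (adjusted p = 0.0584), 11 (0.0689), 12 (0.0649), 13 (0.0609) or 16 (0.0888), with log2 fold changes of 0.22 to 0.29 over all 8 such fits, and on log2(FPKM + 1) (0.18, adjusted p = 0.0965 with limma). In the deletion experiment Neu1 had 7.68, 11.8, 10.0 and 12.2 FPKM in LKO_NASH, against 7.38, 8.29, 7.88 and 7.99 FPKM in WT_NASH. Livers 22 to 24 lay above each WT_NASH liver and liver 21 within their range (log2 fold change 0.25, adjusted p = 0.402).

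Hexa encodes the α subunit of β-hexosaminidase, which degrades GM2 ganglioside. It had 34.9, 43.4, 37.4 and 52.8 FPKM in livers 21 to 24 (LKO_NASH), against 19.5, 23.9, 33.3 and 22.7 FPKM in livers 17 to 20 (WT_NASH). Liver 21, the lowest of LKO_NASH, lay just above liver 19, the highest of WT_NASH. The log2 fold change of Hexa (NCBI gene 15211, chromosome 9) was 0.61 (95% interval 0.24 to 0.98, adjusted p = 0.310), and it passed in the fit of all 16 libraries (adjusted p = 0.0443, with 0.622% of all genes called higher and 0.477% lower) and without livers 19 and 21 (0.83, adjusted p = 0.0188, with the gap widened as said above). Over the fits without 1 liver its adjusted p was 0.0602 or more. In the overexpression experiment Hexa had 64.5, 80.7, 80.2 and 73.75 FPKM in Ad_Chrebpa_HFLMCD and 73.2, 88.4, 75.15 and 83.65 FPKM in Ad_GFP_HFLMCD, which overlapped (-0.03, adjusted p = 0.848).

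The 3 other glycosidases did not pass in either comparison. Gusb, β-glucuronidase, had log2 fold changes of 0.08 in LKO_NASH and -0.08 in Ad_Chrebpa_HFLMCD. Man2b1, lysosomal α-mannosidase, had 0.18 in LKO_NASH and -0.10 in Ad_Chrebpa_HFLMCD. Gla, α-galactosidase A, had 0.06 in LKO_NASH and 0.02 in Ad_Chrebpa_HFLMCD, and the adjusted p of all 3 genes was 0.419 or more. The summed level of the 5 genes was 104 ± 15.4 FPKM in LKO_NASH and 74.6 ± 8.26 FPKM in WT_NASH, and 183 ± 15.2 FPKM in Ad_Chrebpa_HFLMCD and 196 ± 18.8 FPKM in Ad_GFP_HFLMCD (SD, n = 4 each).

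**Figure D3:**
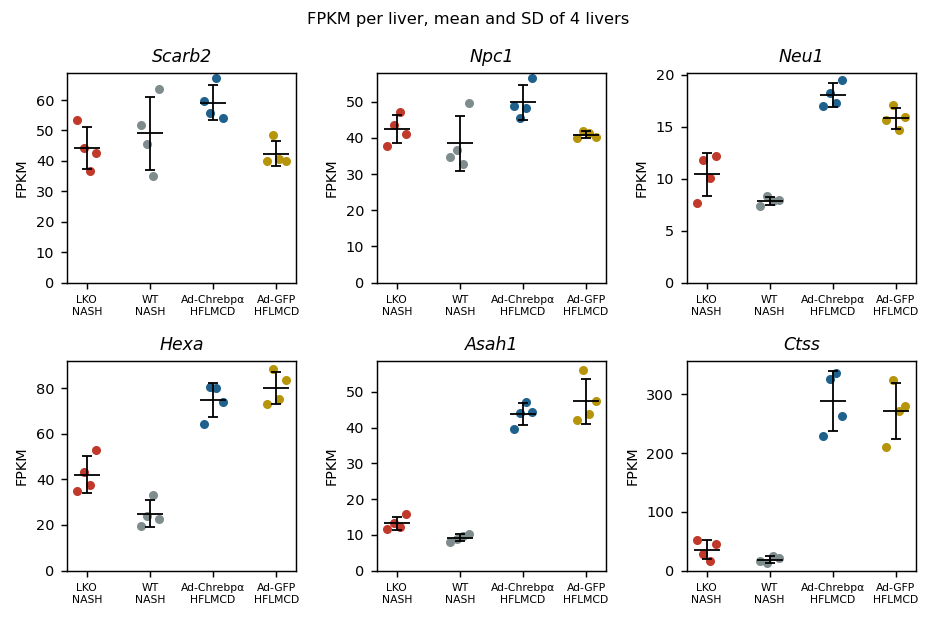
FPKM (y axis) of Scarb2, Npc1, Neu1, Hexa, Asah1 and Ctss in each liver (points), with the mean and SD of the 4 livers of each group (bars). Scarb2 and Npc1 of the Ad_Chrebpa_HFLMCD livers lie above all Ad_GFP_HFLMCD livers, and Hexa and Asah1 of the LKO_NASH livers above all WT_NASH livers.

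Among the genes of lipid handling, Npc1 was called higher in Ad_Chrebpa_HFLMCD. NPC2 hands cholesterol freed in the lumen to NPC1, which exports it through the membrane. Npc1 (NCBI gene 18145, chromosome 18) had 48.9, 45.5, 48.3 and 56.6 FPKM in livers 13 to 16 (Ad_Chrebpa_HFLMCD), against 40.04, 42.0, 41.3 and 40.3 FPKM in livers 9 to 12 (Ad_GFP_HFLMCD). The groups did not overlap, and the control livers lay within 2 FPKM of each other. The log2 fold change was 0.36 (95% interval 0.20 to 0.51, adjusted p = 0.0168), and it was called in 8 of 8 fits that left out 1 liver (0.29 to 0.40). In the deletion experiment Npc1 had 37.8, 43.6, 47.2 and 41.2 FPKM in LKO_NASH, against 34.8, 36.7, 32.7 and 49.6 FPKM in WT_NASH, where liver 20 lay above all others. Its log2 fold change there was -0.00 (95% interval -0.32 to 0.32, adjusted p = 0.996), and 0.15 on log2(FPKM + 1). Npc2 had 18.6 ± 1.74 FPKM in LKO_NASH and 13.7 ± 1.78 FPKM in WT_NASH without overlap (log2 fold change 0.29, adjusted p = 0.319), and 0.03 in Ad_Chrebpa_HFLMCD (adjusted p = 0.859).

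Asah1, acid ceramidase, which splits ceramide into sphingosine and fatty acid, had the lowest p of the 30 genes in the deletion experiment. It had 11.6, 13.3, 12.1 and 15.8 FPKM in livers 21 to 24 (LKO_NASH), against 8.05, 8.74, 9.72 and 10.1 FPKM in livers 17 to 20 (WT_NASH). Each LKO_NASH liver lay above each WT_NASH liver, by a log2 fold change of 0.38 (95% interval 0.17 to 0.58, adjusted p = 0.305). Asah1 (NCBI gene 11886, chromosome 8) had 39.7, 44.1, 47.1 and 44.3 FPKM in Ad_Chrebpa_HFLMCD and 42.1, 56.2, 43.8 and 47.6 FPKM in Ad_GFP_HFLMCD, which overlapped (-0.04, adjusted p = 0.774).

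Lipa, lysosomal acid lipase, hydrolyses the cholesteryl esters and triglycerides that reach lysosomes. It had 76.1, 101, 111 and 106 FPKM in LKO_NASH, against 51.3, 57.7, 65.6 and 83.5 FPKM in WT_NASH. Only liver 21 of LKO_NASH lay under the highest WT_NASH liver, number 20 (log2 fold change 0.47, 95% interval 0.11 to 0.82, adjusted p = 0.343). Lipa (NCBI gene 16889, chromosome 19) had 152, 188, 182 and 166 FPKM in Ad_Chrebpa_HFLMCD and 148, 189, 168 and 164 FPKM in Ad_GFP_HFLMCD (0.11, adjusted p = 0.372). Psap, the precursor of the saposins that activate sphingolipid hydrolases, averaged 273 ± 45.3 FPKM in LKO_NASH and 192 ± 27.1 FPKM in WT_NASH (0.35, adjusted p = 0.357). Its log2 fold change was 0.00 in Ad_Chrebpa_HFLMCD. Smpd1, acid sphingomyelinase, and Ppt1, which removes palmitate from proteins, had -0.09 and 0.23 in LKO_NASH and 0.10 and -0.02 in Ad_Chrebpa_HFLMCD, none of them called. The 7 genes summed to 488 ± 53.1 FPKM in LKO_NASH and 356 ± 39.6 FPKM in WT_NASH, and to 1087 ± 92.4 FPKM in Ad_Chrebpa_HFLMCD and 1116 ± 119.8 FPKM in Ad_GFP_HFLMCD (SD, n = 4 each).

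Of the membrane and proton pump genes, Scarb2 (NCBI gene 12492, chromosome 5) was called higher in Ad_Chrebpa_HFLMCD and had the lowest p of the 30 genes there. It had 59.6, 55.7, 67.2 and 54.0 FPKM in livers 13 to 16 (Ad_Chrebpa_HFLMCD), against 40.1, 48.5, 40.7 and 40.1 FPKM in livers 9 to 12 (Ad_GFP_HFLMCD). The groups did not overlap, with liver 10 the nearest control. The log2 fold change was 0.56 (95% interval 0.38 to 0.73, adjusted p = 0.00399), and it was called in 8 of 8 fits that left out 1 liver (0.50 to 0.61). In the deletion experiment the sign was negative. Scarb2 had 53.35, 44.1, 36.8 and 42.5 FPKM in LKO_NASH, against 51.9, 45.6, 35.0 and 63.6 FPKM in WT_NASH, groups that overlapped almost wholly (-0.29, 95% interval -0.71 to 0.12, adjusted p = 0.465).

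The difference between the 2 log2 fold changes, tested as an interaction over 16 libraries, was called for Scarb2 among the 30 genes (-0.87, 95% interval -1.33 to -0.42, adjusted p = 0.0445). Over all 13830 genes tested, 0.976% were called with a higher value in the deletion experiment and 1.62% with a lower one. The call lay near the threshold. It was kept without livers 14 (adjusted p = 0.0488), 19 (0.00849) and 21 (0.0071) and missed without any 1 of the other 13 livers (0.0642 to 0.113). It was also missed without the filter on low counts (0.0504, with 0.569% of all genes called higher and 0.885% lower) and on log2(FPKM + 1) (0.083). Hexa (0.61, adjusted p = 0.0856) and Asah1 (0.40, adjusted p = 0.0835) were next, with higher values in the deletion experiment. DESeq2 called 4 of the 30, with Asah1 and Hexa higher and Lamp2 and Scarb2 lower, where 3.62% of all genes were called higher and 3.57% lower. Limma on log2(FPKM + 1) called Asah1 and Hexa, both higher, where 6.69% of all genes were called higher and 0.752% lower.

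Lamp1 and Lamp2 are the abundant glycoproteins of the lysosomal membrane, and Cd63 is a tetraspanin of late endosomes and exosomes. Lamp1 (NCBI gene 16783, chromosome 8) had 322, 366, 294 and 401 FPKM in LKO_NASH, against 252, 284, 331 and 266 FPKM in WT_NASH, which overlapped through liver 19 (log2 fold change 0.13, adjusted p = 0.622). It had 449, 451, 469 and 464 FPKM in Ad_Chrebpa_HFLMCD and 463, 511, 452 and 518 FPKM in Ad_GFP_HFLMCD (-0.01, adjusted p = 0.907). Lamp2 lay without overlap above its controls in Ad_Chrebpa_HFLMCD (261 ± 2.24 FPKM) against Ad_GFP_HFLMCD (245 ± 6.61 FPKM; SD, n = 4 each). It did not pass edgeR's test (0.17, adjusted p = 0.065). DESeq2 called Lamp2 higher there, where 1102 of all 13652 genes were called higher and 842 lower. Cd63 (NCBI gene 12512, chromosome 10) had 11.7, 6.60, 6.34 and 14.9 FPKM in LKO_NASH, against 6.88, 3.55, 5.04 and 13.4 FPKM in WT_NASH. Its spread within groups was wide, and the log2 fold change of 0.31 (95% interval -0.59 to 1.21, adjusted p = 0.702) was 0.73 without liver 20 and 0.09 without liver 24. Cd63 had 88.2, 118, 104 and 93.25 FPKM in Ad_Chrebpa_HFLMCD and 71.9, 116, 108 and 129.5 FPKM in Ad_GFP_HFLMCD (-0.01, adjusted p = 0.983).

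Mcoln1, a calcium channel of the lysosomal membrane, and the proton pump subunits Atp6v0d1 and Atp6v1h had log2 fold changes of 0.09, 0.02 and -0.18 in LKO_NASH. They had 0.13, 0.05 and 0.13 in Ad_Chrebpa_HFLMCD, none of them called. The 7 membrane and pump genes summed to 752 ± 72.9 FPKM in LKO_NASH and 668 ± 42.8 FPKM in WT_NASH. They summed to 989 ± 17.1 FPKM in Ad_Chrebpa_HFLMCD and 989 ± 61.0 FPKM in Ad_GFP_HFLMCD (SD, n = 4 each), so that the sums differed by less than the spread between livers although Scarb2 was higher.

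Tfeb (NCBI gene 21425, chromosome 17) had 3.75, 5.34, 5.13 and 5.87 FPKM in LKO_NASH, against 4.56, 4.29, 5.18 and 5.17 FPKM in WT_NASH, with liver 21 the lowest of the 8 (log2 fold change -0.08, adjusted p = 0.746). In the overexpression experiment it had 6.77, 7.75, 5.99 and 6.19 FPKM in livers 13 to 16 (Ad_Chrebpa_HFLMCD), against 8.17, 8.33, 8.93 and 7.58 FPKM in livers 9 to 12 (Ad_GFP_HFLMCD). Only liver 14 lay above the lowest control, number 12, and the log2 fold change of -0.23 (95% interval -0.44 to -0.01, adjusted p = 0.164) did not pass. Grn, progranulin, a secreted protein that also acts inside lysosomes, averaged 124 ± 16.6 FPKM in LKO_NASH and 114 ± 7.41 FPKM in WT_NASH (-0.02), and 207 ± 18.9 FPKM in Ad_Chrebpa_HFLMCD and 202 ± 10.1 FPKM in Ad_GFP_HFLMCD (0.11; SD, n = 4 each).

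Macrophages carry many of these enzymes, and their markers moved with the lysosomal values in some livers and not in others. The 20 macrophage and Kupffer cell markers summed to 477, 386, 197 and 462 FPKM in livers 21 to 24 (LKO_NASH), against 192, 149, 302 and 219.5 FPKM in livers 17 to 20 (WT_NASH). Liver 23 lay within the WT_NASH range and liver 19 was the highest of WT_NASH, which also held for Ctss. Liver 21 had the highest marker sum of LKO_NASH and the lowest value of its group for 15 of the 30 lysosomal genes. Its sums were the lowest of LKO_NASH for glycosidases (87.5 FPKM) and lipid genes (446 FPKM) and the highest for peptidases (1160 FPKM). Liver 23, with the lowest marker sum, had the lowest value of LKO_NASH for 13 of the 30 genes, and liver 24 the highest for 15. Of the 20 markers 19 had positive log2 fold changes in LKO_NASH, with a median of 0.71, and edgeR called none. The hepatocyte markers had a median of -0.37, with 1 of 9 positive and none called. In the overexpression experiment the macrophage markers summed to 1218, 1790 (1789.6), 1703 and 1592 FPKM in Ad_Chrebpa_HFLMCD and 1549.98, 2361, 1722 and 1680.2 FPKM in Ad_GFP_HFLMCD, with liver 13 the lowest and liver 10 the highest of their groups. Liver 13 was also the lowest of its group for 22 of the 30 lysosomal genes, and liver 10 the highest of its group for 21. Of the 20 markers, Itgax was called higher (0.40, adjusted p = 0.0454) and none lower, with a median of -0.08. No macrophage marker was at 0 in any liver. The part of macrophage content in the lysosomal values was not tested, and in whole-liver RNA fewer cells of a type and less RNA per cell cannot be told apart.

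Of the other markers in Ad_Chrebpa_HFLMCD, the hepatocyte genes Fgb (0.44) and Apoa1 (0.33) and the plasma cell genes Jchain (2.09) and Mzb1 (1.29) were called higher. Of 5 cholangiocyte markers 4 were called lower, led by Krt19 (-1.22), Cftr (-2.51) and Epcam (-0.90). No marker of neutrophils, dendritic cells, T and NK cells, sinusoidal endothelium or stellate cells was called there by edgeR. Nor did edgeR call any marker in LKO_NASH with all livers. Without liver 21, 3 hepatocyte genes (Ahsg, Hnf4a and Fgb) were called lower in LKO_NASH, where 1.96% of all genes were called lower and 1.28% higher. Liver 21 had the highest hepatocyte marker sum of LKO_NASH (61976 FPKM), so leaving it out lowers the mean of that sum by construction. The 9 calls in Ad_Chrebpa_HFLMCD numbered 5 without liver 11 or 13 and 4 without liver 15 or 16. The part of these cells in the lysosomal values was not tested either.

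**Figure D4:**
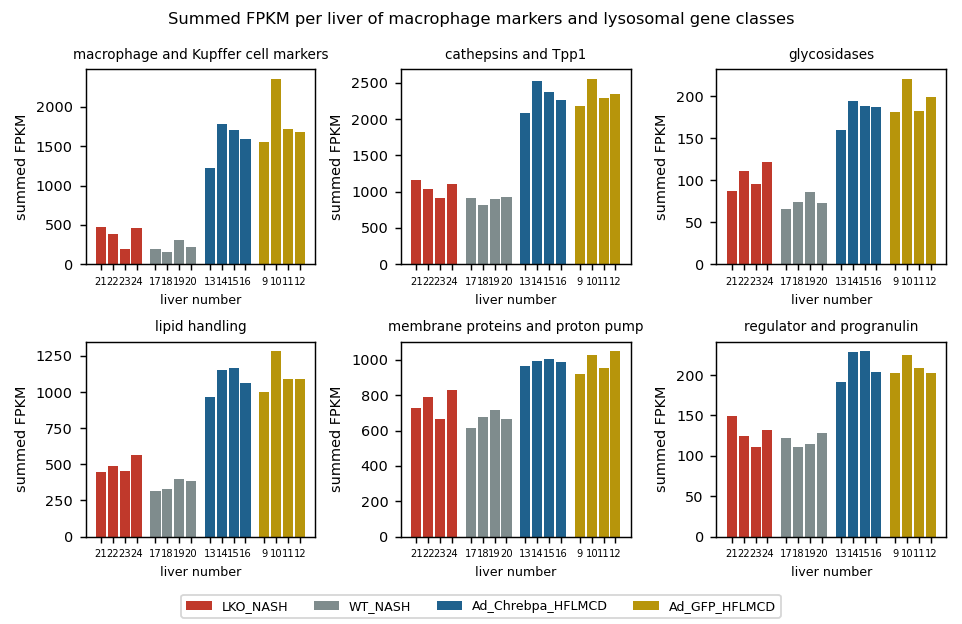
Summed FPKM per liver (bars, y axes start at 0) of 20 macrophage and Kupffer cell markers and of the 5 classes of lysosomal genes. In the panels of macrophage markers, peptidases, glycosidases and lipid genes the 8 HFLMCD livers lie well above the 8 NASH livers, and liver 10 is the highest and liver 13 the lowest of the 8 HFLMCD livers for glycosidases and lipid genes.

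A wider set of 113 lysosomal and autophagy genes was read from the same fits. In Ad_Chrebpa_HFLMCD edgeR called 13 of the 112 tested higher and 1 lower, where 4.95% of all genes were called higher and 3.18% lower. None of the other hydrolases, proton pump subunits or enzyme targeting genes was among them. The largest rise in enzyme genes was that of Gaa, acid α-glucosidase, which digests glycogen in lysosomes. It had 30.7, 31.7, 34.4 and 30.6 FPKM in livers 13 to 16 (Ad_Chrebpa_HFLMCD), against 19.1, 19.2, 18.2 and 17.7 FPKM in livers 9 to 12 (Ad_GFP_HFLMCD). All 4 overexpression livers lay far above all 4 controls (log2 fold change 0.86, adjusted p = 4.3e-05). In LKO_NASH Gaa averaged 35.8 ± 0.74 FPKM and in WT_NASH 32.0 ± 4.55 FPKM, with no call. The sulphatase Sgsh (0.37, adjusted p = 0.027) and the peptidases Scpep1 (0.29, 0.0278) and Ctsf (0.27, 0.0319) were also called higher. So were Slc17a5, the sialic acid exporter (0.50, adjusted p = 0.00892), and the membrane protein Tmem106b (0.39, 0.0277).

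At the lysosome surface, Rag GTPases and folliculin let mTORC1 act on TFEB, which holds TFEB in the cytosol. Of 16 tested genes of this list, 4 were called higher in Ad_Chrebpa_HFLMCD and 1 lower, beside the same 4.95% and 3.18% of all genes. Rptor, the mTORC1 subunit Raptor, had 6.66, 6.48, 6.91 and 7.11 FPKM in Ad_Chrebpa_HFLMCD, against 4.90, 5.45, 4.99 and 5.16 FPKM in Ad_GFP_HFLMCD (log2 fold change 0.48, adjusted p = 0.00144). Rragd, the Rag GTPase RagD, was the gene called lower, with 2.60, 4.30, 3.03 and 3.38 FPKM in Ad_Chrebpa_HFLMCD, against 5.67, 8.89, 5.35 and 7.93 FPKM in Ad_GFP_HFLMCD (-0.99, adjusted p = 0.0123). Neither pair of groups overlapped. Flcn, folliculin (0.44, adjusted p = 0.0454), and its partners Fnip1 (0.56, 0.0469) and Fnip2 (0.43, 0.0337) were called higher. Of 12 autophagy genes, the cargo receptor Sqstm1 (0.30, adjusted p = 0.0253) and Gabarapl1 (0.51, 0.0454), which tags autophagosomes, were called higher, beside that 4.95% of all genes.

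Only Gaa, Slc17a5, Rptor and Rragd of these 14 genes were called in all 8 fits that left out 1 liver. The count of 14 was 9 without liver 9, 5 without livers 11, 12 or 15 each, 7 without liver 13 and 4 without liver 16, and the other 10 genes had adjusted p of up to 0.132 in such fits. In LKO_NASH edgeR called none of the 112 genes, and 67 had positive log2 fold changes, as 51.5% of all 12786 genes tested had. Of the autophagy genes 3 of 12 were positive, and of the other proton pump subunits 7 of 15. All 12 other peptidases and cystatins were positive there (median 0.22), with Ctse at 1.66 (adjusted p = 0.305) and Scpep1 at 0.44 (0.310) the nearest to the threshold. Without liver 21, Scpep1, Man2b2 and Gnptab were among the genes called higher, where 1.28% of all genes were called higher and 1.96% lower. Liver 21 was the lowest of LKO_NASH for Scpep1 (13.75 FPKM). Leaving it out therefore widens that difference by construction, and the call is no support for it. In the fit of all 16 libraries Ctse and Scpep1 were called higher, with 0.622% of all genes called higher and 0.477% lower.

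The 2 control groups were compared to place the levels of the 4 groups. They differ in diet, its length, mouse line and virus together, which cannot be told apart. In WT_NASH against Ad_GFP_HFLMCD, 15 of the 30 genes were called lower and 7 higher on counts, where 30.9% of all 13488 genes were called lower and 28.2% higher. The median log2 fold change of the 30 was -0.32, against -0.01 over all genes. The deepest falls were those of Cd63 (-3.26 ± 0.34 SE) and Ctss (-3.24 ± 0.20 SE), followed by Asah1 (-1.75), Ctsd (-1.54), Psap (-1.35), Gla (-1.29), Npc2 (-1.13), Hexa and Ctsb (both -1.06). All 5 glycosidases and 5 of 7 lipid genes were lower, with Npc1 (0.53) and Smpd1 (0.51) higher on counts. Of the 7 membrane and pump genes 5 were higher on counts, namely Scarb2 (0.84), Lamp2 (0.55), Atp6v1h (0.40), Mcoln1 (0.37) and Atp6v0d1 (0.19), and Cd63 was lower.

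The direction of the 7 higher genes depended on the scale. On log2(FPKM + 1) all genes had a median of -0.43, the 15 lower genes stayed negative, and 6 of the 7 higher genes turned negative, Scarb2 being the exception (0.18). Set against that median, the 7 lay 0.01 (Atp6v0d1) to 0.61 (Scarb2) above it. On that scale limma called 26 of the 30 lower and none higher, where 72.2% of all genes were called lower and 5.51% higher. In FPKM 26 of the 30 lay below Ad_GFP_HFLMCD without overlap, as 68.9% of all genes did, and none above, as 4.51% did. Cell type markers differed in the same comparison. Of 20 macrophage markers, 17 were called lower and 2 higher, with a median of -2.19. Cd68 averaged 7.17 ± 1.88 FPKM in WT_NASH and 108 ± 17.9 FPKM in Ad_GFP_HFLMCD, and Clec4f 16.8 ± 3.77 and 30.5 ± 16.8 FPKM. Timd4 (1.445 FPKM in WT_NASH and 0.925 in Ad_GFP_HFLMCD) and Cd163 (2.055 and 0.5525) had the higher mean in WT_NASH. Of 9 hepatocyte markers 8 were called higher. The part of these cells in the lysosomal levels was not tested.

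**Figure D5:**
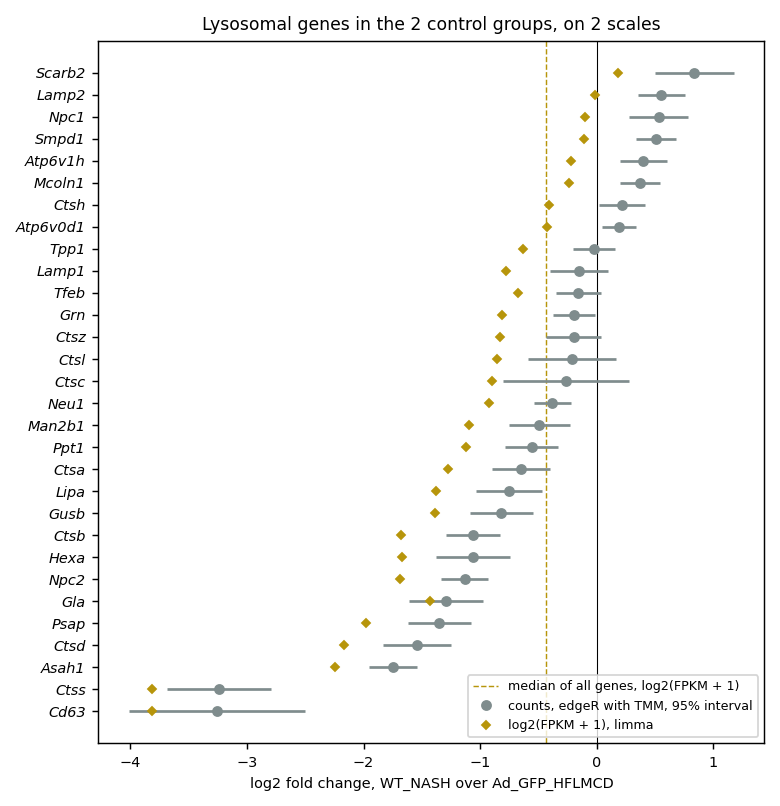
Log2 fold change of WT_NASH over Ad_GFP_HFLMCD (x axis) for the 30 lysosomal genes, from counts (circles, with 95% intervals) and on log2(FPKM + 1) (diamonds). The diamonds lie to the left of the circles. Most of them also lie left of the dashed line at -0.43, which marks the median of all genes on the FPKM scale. The median of the 30 genes on that scale was -0.91, and Cd63 and Ctss lie farthest left on both.

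In the wider set, WT_NASH had 27 of 112 genes called higher and 38 lower on counts, shares near the 28.2% and 30.9% of all genes. Rragd (-3.42), the cystatin Cstb (-1.90) and Laptm5, a membrane protein of blood cells (-2.87), were among the deepest falls, and Gaa was higher (1.41). Gene lengths, which enter FPKM, were the authors' own. They varied between libraries for 7 of the 30 genes, those with several listed transcripts. Lamp2 varied most, at 2209 to 2343 bases in WT_NASH and 2340 to 2391 bases in Ad_GFP_HFLMCD, so its FPKM is not on exactly 1 length.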

How the data were processed

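Whole-liver RNA-seq was analysed from 16 deposited tables, 1 per liver, for 4 groups of 4. The deposited expected counts are estimated reads per transcript entry, not whole for 25.3% to 27.2% of genes. The deposited FPKM values are those counts scaled to length and library size, per the file headers. HISAT2 is named, with no version, in the submitters' processing notes. The counting program, annotation, genome build and strand setting are named in neither labels nor file headers, so reads of overlapping or antisense genes cannot be told apart. Per the labels, RNA was enriched by oligo-dT or by rRNA depletion, without saying which for which library.

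The 17436 entries gave 17410 genes after 26 transcript-named entries were joined to their gene, and genes not listed in a library were set to 0. Expected counts were rounded and tested over all genes with edgeR 4.0.16 (filterByExpr, TMM, quasi-likelihood, Benjamini-Hochberg adjustment, R 4.3.3), separately for each comparison on its 8 libraries, and over 16 libraries for the interaction. The scripts were tested on simulated data. Alternatives were DESeq2 1.42.0, limma 3.58.1 (voom, and log2(FPKM + 1) or log2(FPKM + 0.1), for genes with a mean of at least 0.1 FPKM), no filter, other scalings, a fold change of at least 1.5, leaving out each liver and a fit of all libraries. No covariate was used.

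The members, lists and tests were chosen with earlier results of these data known, so neither the choice of members nor their direction is independent of them. Genes given liver by liver were, by rule, those called in a ChREBPα comparison or their interaction, those with the lowest p or largest fold change of each class, and 7 class examples (Ctsb, Ctsd, Ctss, Lamp1, Lipa, Npc1 and Tfeb). Of other lists, the rule named up to 3 called genes with the lowest p, and Flcn, Fnip1 and the genes named with livers left out were added after their values were seen. Motifs were searched in RefSeq promoter windows of GRCm38.p6. No spike-in sets the scales against each other. Some genes of the wider set are not reported here by name.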

Additional observations from a re-analysis of the deposited data

Results flagged for a closer look

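Of 120 sets of 4 values (30 genes in 4 groups), 2 had a liver far from the other 3 by Dixon's test, where chance gives about 1 in 20. Ctsl, cathepsin L, had 352.18 FPKM in liver 21 of LKO_NASH, against 182 to 205 FPKM in the other 3 LKO_NASH livers. Scarb2 had 48.47 FPKM in liver 10 of Ad_GFP_HFLMCD, against 40.1 to 40.7 FPKM in the other 3 Ad_GFP_HFLMCD livers. Scarb2 was also called higher in Ad_Chrebpa_HFLMCD without liver 10. That liver was the control nearest to the Ad_Chrebpa_HFLMCD livers, so leaving it out widens the difference by construction, and this call is no support for it. The log2 fold change of Scarb2 differed between the deletion and the overexpression experiments by -0.87 in the interaction test (adjusted p = 0.0445), with the dependence on single livers given above.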

How the results depend on the processing

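No paired analysis was possible because the livers are numbered 9 to 24 and no number is shared between groups. For LKO_NASH against WT_NASH, where edgeR called 0 of the 30 genes, DESeq2 called 1 and the fit of all 16 libraries 1, and 6 were called without livers 19 and 21. DESeq2 called 1 gene of the wider set and 1 marker there, and without livers 19 and 21 the counts were 8 and 8. Leaving out livers 19 and 21 together was chosen for these lists after seeing the data. For Ad_Chrebpa_HFLMCD against Ad_GFP_HFLMCD, DESeq2 called Lamp2 beside the 3 genes that edgeR called. Of those 3 genes, 0 were called in the fit of all 16 libraries and 0 had a fold change of at least 1.5. For WT_NASH against Ad_GFP_HFLMCD, 13 of 22 had that fold change. The share of all genes at that fold change is not given here, so these counts cannot be set against it. The interaction, with 1 call, gave 0 without the filter on low counts, 4 with DESeq2 and 2 with each of 3 limma fits on FPKM. The cause of these differences was not tested.

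Without 1 liver at a time, the calls among the 30 genes numbered 0 to 1 for LKO_NASH, 2 to 3 for Ad_Chrebpa_HFLMCD, 21 to 24 for WT_NASH against Ad_GFP_HFLMCD, and 0 to 4 for the interaction. The calls over all genes moved too. The 4 interaction calls came without liver 21, where 644 of all 13959 genes were called higher and 1039 lower. The 24 calls between the control groups came without liver 17, where 3706 of all 13700 genes were called higher and 4048 lower. For Ad_Chrebpa_HFLMCD, all genes called higher ranged from 263 without liver 16 to 937 without liver 14. Those of the wider set numbered 0 to 4, 4 to 17 and 56 to 66 in the 3 comparisons, and those of the markers 0 to 3, 4 to 8 and 45 to 53.

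Signs turned for genes near 0 in the ChREBPα comparisons, and between the control groups also for genes farther from 0. For LKO_NASH, Ctsh was 0.0011 in the limma fits on FPKM, Npc1 0.010 with voom and 0.15 to 0.16 on FPKM, and Tfeb 0.044 to 0.050 on FPKM and 0.047 without livers 19 and 21. Without 1 liver, Npc1 ranged from -0.080 to 0.096 and Tfeb from -0.13 to 0.018. For Ad_Chrebpa_HFLMCD, Ctsb was -0.069 and Ctsd -0.047 on FPKM, and Cd63 0.015 with voom and 0.0059 in the fit of all 16 libraries. Without 1 liver the ranges were -0.038 to 0.060 for Ctsb, -0.030 to 0.088 for Ctsd, -0.063 to 0.026 for Hexa, -0.085 to 0.030 for Asah1, -0.035 to 0.026 for Lamp1 and -0.15 to 0.11 for Cd63. For WT_NASH against Ad_GFP_HFLMCD, Ctsh was 0.22 and Npc1 0.53 on counts. On FPKM, Ctsh was -0.41 and Npc1 -0.10 to -0.11. The median of all genes was itself -0.43 on log2(FPKM + 1), and Ctsh lay 0.03 and Npc1 0.33 above it. With FPKM rescaled to the same total in each liver, the log2 ratio of summed levels there was -1.55 for peptidases, -1.55 for glycosidases, -0.72 for membrane genes, -0.97 for Tfeb with Grn and -1.36 for the whole set.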
